A study of Mus musculus with 8 samples.

Results

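The 8 genes described here encode enzymes, or the activator protein of an enzyme, that take sphingolipids apart in the lysosome: Hexa, Gla, Glb1, Galc, Neu1, Smpd1, Asah1 and Gm2a. They were followed by ChIP-seq for H3K27ac, the acetylated form of histone H3 found at promoters and enhancers in use, in mouse microglia with and without the progranulin gene Grn. Every region whose gene name in the deposited table equals one of the 8 symbols was taken, which gave 48 of 129304 regions and 8 of 18707 gene symbols. Hexa and Galc had 12 regions each, Asah1 had 8, Gm2a had 7, Smpd1 and Neu1 had 3 each, Gla had 2 and Glb1 had 1. Of the 48 regions, 13 lay within 1000 bp of the start site of their gene and 35 lay farther away.

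Sphingolipids are membrane lipids built on ceramide, and they reach the lysosome when a cell takes up membranes, myelin debris or dying cells. There they are dismantled from the outermost sugar inwards by acid hydrolases that act in a fixed order, until ceramide is split into a fatty acid and sphingosine. Loss of any one step causes a lysosomal storage disease, many of which affect the brain, and microglia are the brain's resident phagocytes. Progranulin, the product of Grn, is secreted and also delivered to lysosomes.

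The 2 groups were WT mice and GrnKO mice of the C57BL/6 strain, 2 years old, with no treatment stated. Nuclei came from frozen brain tissue, and sorting kept those stained for PU.1, a myeloid transcription factor, and discarded those with OLIG2 or NEUN, which mark the oligodendrocyte lineage and neurons. Sorted nuclei of 2 mice were pooled for each replicate. There were 2 replicates per genotype, each with an H3K27ac library and an input library of chromatin that was not immunoprecipitated. The sex of the mice and the design of the Grn allele are not given in the sources used here.

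The H3K27ac libraries held 15491642.5 to 20030832 tags and the inputs 4078179 to 14415969 tags. The share of H3K27ac tags in the listed regions was 49.4% in WT replicate 1 and 63.3% to 65.7% in the other 3, so that WT replicate 1 stood apart, and for several genes the values without it are given. At the Grn start site the level was 357 and 300.1 scaled tags in WT and 0 in both GrnKO libraries, so the libraries matched their labels there. Start-site regions of microglial markers held on average 453 and 514 scaled tags in WT and 414 and 423 in GrnKO, and each of the 9 markers with such a region, of 10 listed, had well over 100 scaled tags in every library. By gene sums, 4 of the 10 microglial markers were lower in GrnKO, where 4.88% of all genes were lower and 9.54% higher. By the same sums, 1 of 4 tested neuronal markers was lower, 1 of 4 of the oligodendrocyte lineage was higher and 1 lower, and 1 of 3 of astrocytes and 1 of 6 of border macrophages and monocytes were higher; their part in the results was not tested. The neuronal average over 3 of 7 markers was at most 1.46 scaled tags in any library, with Slc17a7 at 0 in 3 of the 4. The averages for the oligodendrocyte lineage were 6.96 to 12.6 scaled tags over 6 of 8 markers, for astrocytes 21.9 to 28.0 over 2 of 5, and for border macrophages and monocytes 27.8 to 37.8 over 3 of 7. For T and B cells the value was at most 2.74 scaled tags over 1 of 4. The endothelial marker Flt1, the only 1 of 3 with a start-site region, moved with genotype, from 4.17 and 10.5 scaled tags in WT to 48.0 and 48.1 in GrnKO, and its part in the results below was not tested.

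Levels below are scaled tags, which are tags per 800 bp region at a library total of 10000000 after TMM scaling, a correction for unequal composition of the libraries. Differences are log2 changes of scaled tags + 1, GrnKO minus WT, from limma fits over all regions or genes, with Benjamini-Hochberg adjusted p-values and a threshold of 0.05. The + 1 makes the changes of weak regions look smaller than they are. With 2 pools per genotype, the p-values rest on the spread between these pools, which limma draws toward a trend over all regions or genes. The small p-values thus lean on other regions or genes and not on these pools alone. In chromatin from a sorted population, fewer cells with the mark and less mark per cell cannot be told apart.

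The stretch upstream of the start site is shown for 3 of the genes, because the H3K27ac levels of Gla and Galc differed most between genotypes and because Gla and Glb1 hold the letters CACGTG. This is the E-box that the lysosomal gene regulators TFEB, TFE3 and MITF recognise. The sequences are the 250 bases before the start site from RefSeq on GRCm38.p6, the assembly known as mm10, printed 5′ to 3′ on the strand of the gene. Gla lies at chrX:134601006-134601255 on the minus strand, Glb1 at chr9:114400828-114401077 on the plus strand and Galc at chr12:98259460-98259709 on the minus strand. Capitals mark CACGTG and CATGTG, the latter searched on both strands.
Gla: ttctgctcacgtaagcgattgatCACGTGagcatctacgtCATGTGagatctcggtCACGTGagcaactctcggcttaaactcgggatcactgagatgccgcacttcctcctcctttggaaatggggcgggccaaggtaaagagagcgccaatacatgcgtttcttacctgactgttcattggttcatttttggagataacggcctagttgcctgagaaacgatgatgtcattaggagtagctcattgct
Glb1: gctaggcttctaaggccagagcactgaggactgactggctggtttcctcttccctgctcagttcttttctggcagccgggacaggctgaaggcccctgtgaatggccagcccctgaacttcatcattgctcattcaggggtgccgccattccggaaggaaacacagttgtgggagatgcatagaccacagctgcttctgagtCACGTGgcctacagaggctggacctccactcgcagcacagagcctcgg
Galc: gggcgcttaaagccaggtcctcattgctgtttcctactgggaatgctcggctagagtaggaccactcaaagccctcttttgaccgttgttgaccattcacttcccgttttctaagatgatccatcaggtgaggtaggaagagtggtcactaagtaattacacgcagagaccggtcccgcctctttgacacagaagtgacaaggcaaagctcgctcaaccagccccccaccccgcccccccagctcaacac

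A RefSeq promoter of 300 bases, from 250 before to 50 after the start site, was found for 7 of the 8 genes, all but Asah1. Counting the start base as 0, the Gla promoter held CACGTG at bases -227 and -194, both inside the longer palindrome TCACGTGA, and CATGTG at base -210. Among 32851 mouse promoters of the same length, CACGTG occurred in 7.15%, CATGTG in 14.2% and TCACGTGA in 0.974%. At least 3 matches to CACGTG or CATGTG occurred in 0.615% of promoters (202 of them), and at least 2 matches to TCACGTGA in 0.0578% (19 of them). The Glb1 promoter held 1 CACGTG, at base -48, and the Neu1 promoter held 1 CACATG, the reverse complement of CATGTG, at base 4, just after the start. GAGGAAGT, the core letters bound by PU.1, occurred once, in Gla at base -148 as ACTTCCTC, against 3.20% of all promoters. The promoters of Hexa, Smpd1, Galc and Gm2a held none of the 4 motifs. The motifs were chosen after the sequences were seen, and the limits of 3 and 2 matches are the counts that Gla itself holds. The matches and their shares are a description of letters only.

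Summed over all assigned regions, H3K27ac rose at Gla and Galc in GrnKO microglia and passed the test in neither direction at the other 6 genes. Gla, the α-galactosidase whose loss causes Fabry disease, rose 5.5-fold, and Galc, the galactosylceramidase whose loss causes Krabbe disease, rose 2.20-fold. Among all 15380 genes tested, 14.4% passed the threshold, 9.54% as higher and 4.88% as lower. The median log2 change of the 8 genes was 0.17, against -0.0099 for all genes. Both GrnKO values lay above both WT values for Gla, Galc, Glb1 and Asah1 and below them for Neu1, against 27.4% and 26.6% of all genes. The authors' scaling to library totals alone moved the median of all genes to 0.18, and changes given in that scaling are to be read against this shift.

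**Figure D1:**
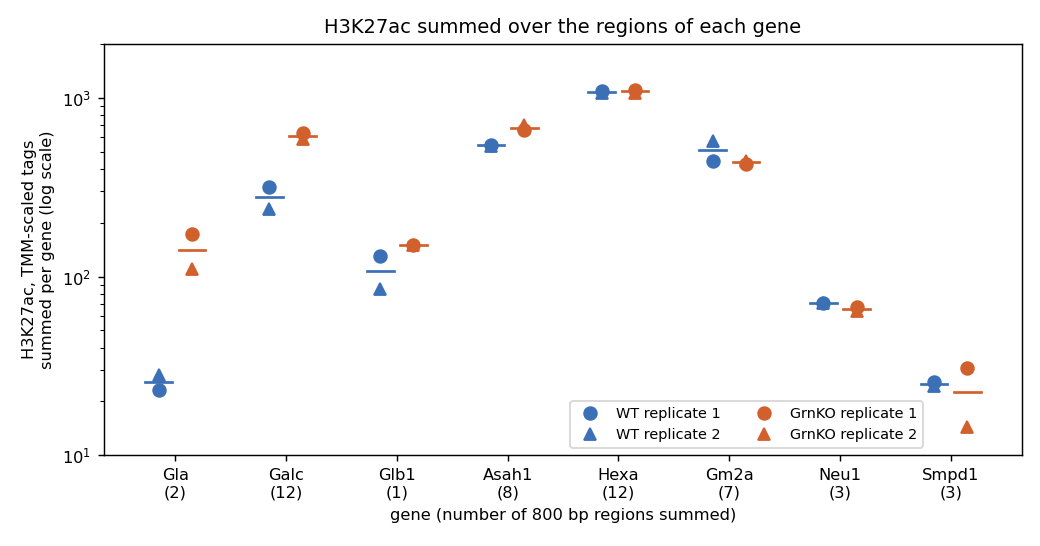
H3K27ac summed over the regions of each gene, in TMM-scaled tags on a log axis, by gene, with the number of 800 bp regions in brackets. Blue is WT and orange is GrnKO, circles are replicate 1, triangles replicate 2, and bars the means of 2 libraries; the GrnKO values of Gla (172 and 111) and Galc (638 and 585) lie clear of the WT values (23.3 and 28.2, 317 and 238).

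Region by region, 44 of the 48 held enough tags to be tested. Of these, 8 were higher and 1 was lower in GrnKO, against 6.80% higher and 2.92% lower (9.71% in either direction) among all 80728 regions tested. The calls fell in 3 genes: both regions of Gla, 5 of the 10 tested regions of Galc, and 1 region in each direction at Asah1. The other 5 genes had no called region. Log2 changes ran from -1.22 to 2.60 with a median of 0.13, 27 above 0 and 17 below, where 49.9% of all tested regions were above 0. Without GrnKO replicate 1 only 2 of the 9 calls were made and without GrnKO replicate 2 only 5, where the lone GrnKO library is assumed to vary like the WT ones. With the authors' scaling the split was 7 higher and 0 lower, against 8.15% higher and 0.412% lower among all regions, whose split moved from 5488 higher and 2354 lower to 6581 and 333.

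**Figure D2:**
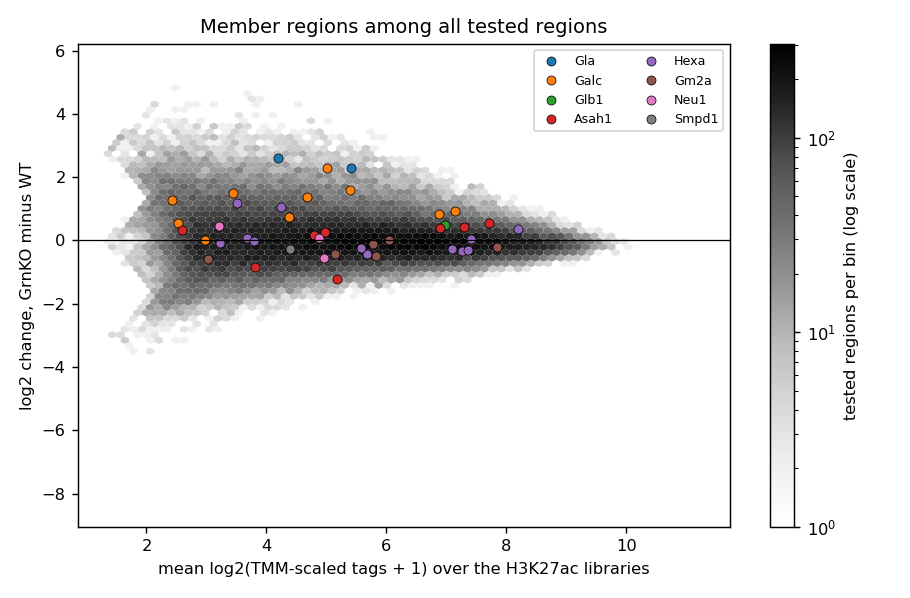
Each tested region by its mean log2 level over the 4 H3K27ac libraries (horizontal axis) and its log2 change, GrnKO minus WT (vertical axis); grey shading counts all 80728 regions per bin on a log scale and coloured points are the 44 tested regions of the 8 genes. The 2 Gla points lie at 2.28 and 2.60 and the highest Galc point at 2.30, while the median of the 44 points is 0.13.

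The sugar-removing enzymes are taken first. Gla cuts the terminal α-linked galactose from globotriaosylceramide. Its summed level was 23.3 and 28.2 scaled tags in WT and 172 and 111 in GrnKO. Every GrnKO value was several times the highest WT value (log2 change 2.39, SE 0.32, 95% confidence interval 1.71 to 3.06, limma adjusted p = 0.000117; 2.57 in the authors' scaling). The larger part came from the region 621 bp downstream of the start site, chrX:134599984-134600784 (mm10), which the table annotates as the promoter of NM_001313717, a transcript of the neighbouring gene Hnrnph2. It held 13.7 and 24.4 scaled tags in WT and 116 and 74.1 in GrnKO (log2 change 2.28, limma adjusted p = 0.000433). The adjoining region in intron 1 of 6 of Gla, chrX:134599189-134599989, held 10.2 and 3.93 scaled tags in WT and 54.0 and 35.5 in GrnKO (log2 change 2.60, limma adjusted p = 0.00333). In both regions the groups stood apart, with GrnKO replicate 1 highest. Without GrnKO replicate 1 the change of the sum was 2.08 and still passed (limma adjusted p = 0.00287), that of the intron region was 2.31 and did not (limma adjusted p = 0.154). Without WT replicate 1 the change of the intron region was larger, at 3.21. Without the same library the region 621 bp downstream and the sum had smaller changes, 1.89 and 2.26.

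The E-boxes printed for Gla do not lie in these 2 regions. The 300-base promoter lies wholly within a region that the table assigns to Hnrnph2, an RNA-binding protein gene that starts close by and is read in the opposite direction. This region, chrX:134600703-134601503, held 57.5 and 66.3 scaled tags in WT and 108 and 82.8 in GrnKO, a log2 change of 0.61 that did not pass (limma adjusted p = 0.141). A second Hnrnph2 region, covering 178 of the 300 bases, had a log2 change of 0.19 (limma adjusted p = 0.721). The H3K27ac that rose at Gla was thus measured downstream of the start site, and over the start site itself the levels were closer together.

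Gla is X-linked, and the libraries differed in X- and Y-linked signal. Xist regions summed to 81.7 and 128 deposited scaled tags in replicate 1 of WT and GrnKO and to 0 and 5.49 in replicate 2, and Y-linked start sites to 5.81 and 0 in replicate 1 and 269.6 and 220.2 in replicate 2. This pattern went with the replicate number and not with the genotype. Between libraries of the same number, the log2 difference at Gla was 2.84 for replicate 1 and 1.94 for replicate 2. The part of the X- and Y-linked pattern in the Gla result was not tested.

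Galc removes galactose from galactosylceramide, the main glycolipid of myelin, and from the toxic lipid psychosine. Its 12 regions summed to 317 and 238 scaled tags in WT and 638 and 585 in GrnKO (log2 change 1.15, SE 0.16, 95% confidence interval 0.81 to 1.495, limma adjusted p = 0.000192; 1.34 in the authors' scaling). The GrnKO libraries agreed more closely with each other than the WT libraries did, and the groups did not overlap. The rise was spread along the gene, and all 10 tested regions had a change above 0.

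At the Galc start site, the region centred 14 bp upstream, chr12:98259073-98259873, held 96.6 and 78.0 scaled tags in WT and 167 and 145 in GrnKO (log2 change 0.83, limma adjusted p = 0.0169). The highest region of the gene lies 355 bp downstream in intron 1 of 16, over a CpG island, chr12:98258704-98259504. It held 129 and 79.6 scaled tags in WT and 207 and 186 in GrnKO (log2 change 0.94, limma adjusted p = 0.0106). Both overlap the printed sequence and each other, so they share tags.

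Larger changes lay inside the gene, at regions with low WT levels. In intron 5 of 16, 9575 bp from the start site, chr12:98249484-98250284 held 18.4 and 9.95 scaled tags in WT and 66.8 and 74.7 in GrnKO (log2 change 2.30, limma adjusted p = 0.000748). A second region of the same intron, chr12:98246597-98247397, went from 16.8 and 13.1 scaled tags to 37.3 and 43.1 (log2 change 1.38, limma adjusted p = 0.0363). In intron 12 of 16, 43690 bp from the start site, chr12:98215369-98216169 went from 27.4 and 19.6 scaled tags to 78.6 and 65.7 (log2 change 1.59, limma adjusted p = 0.00408). In GrnKO these 3 intronic regions thus reached levels near those of the start-site region in WT or below them. Regions over 1000 bp from the start site together rose by 1.64 on the log2 scale (95% confidence interval 1.15 to 2.14, limma adjusted p = 0.000348), and those within 1000 bp by 0.90 (0.53 to 1.27, limma adjusted p = 0.00478). The difference between these 2 changes was not tested.

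Of the 5 Galc calls, the one at chr12:98249484-98250284 held without either GrnKO library. Without GrnKO replicate 1 the other 4 did not pass (limma adjusted p = 0.121 to 0.318), and without GrnKO replicate 2 the start-site region and the second intron 5 region did not (limma adjusted p = 0.0898 and 0.362). Without GrnKO replicate 1 neither did the sum within 1000 bp (log2 change 0.82, limma adjusted p = 0.269). The second intron 5 region also failed with DESeq2 (adjusted p = 0.0803) and without the filter on low tags (limma adjusted p = 0.0524). The gene sum passed under every alternative of scaling, filter, pseudocount, tool, block and left-out library, with changes of 0.96 to 1.36.

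**Figure D3:**
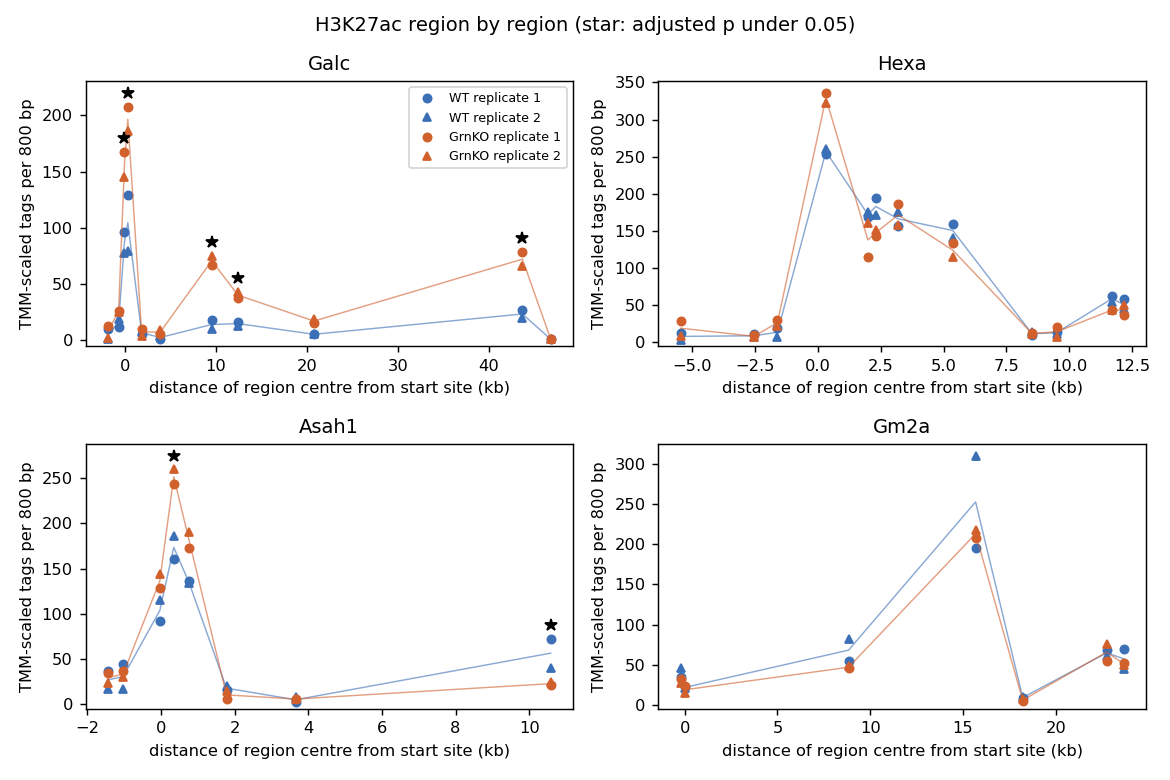
H3K27ac of each region of Galc, Hexa, Asah1 and Gm2a in TMM-scaled tags (vertical axis) by the distance of its centre from the start site in kb (horizontal axis; positive is downstream); points are libraries as in the plot of sums, lines join the genotype means and stars mark adjusted p under 0.05. At Galc the GrnKO points lie above the WT points at the start site and at 3 starred intronic regions, while no region of Hexa or Gm2a is starred.

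Glb1 is the β-galactosidase that trims GM1 ganglioside. Its only region spans the start site, chr9:114400647-114401447, and covers the whole promoter with its single E-box. It held 134 and 84.9 scaled tags in WT and 147 and 149 in GrnKO. Both GrnKO values were above both WT values, but WT replicate 1 lay much nearer to them than WT replicate 2, and the log2 change of 0.47 did not pass (95% confidence interval 0.0026 to 0.94, limma adjusted p = 0.207). Without WT replicate 1, the library that stood apart in its share of tags, the change of the region was 0.80 and passed (limma adjusted p = 0.00383), and without WT replicate 2 it was 0.17 (limma adjusted p = 0.598). The neighbouring gene Tmppe starts close by, and 2 adjoining regions are assigned to it and not to Glb1. Both lie within the RefSeq span of Glb1, downstream of its start site, and are not in the Glb1 sum. The nearer one covers 50 bases of the Glb1 promoter. These 2 regions had log2 changes of 0.64 and 0.87 (limma adjusted p = 0.122 and 0.137).

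Hexa encodes the α subunit of β-hexosaminidase A, which cuts GM2 ganglioside and whose loss causes Tay-Sachs disease. It had the highest sum of the 8 genes, 1096 and 1063 scaled tags in WT and 1112 and 1069 in GrnKO. The groups interleaved, and the 95% confidence interval of the log2 change of 0.014 ran from -0.22 to 0.25 (limma adjusted p = 0.957). Its highest region, over exon 1 of 14 (chr9:59539456-59540256), held 253 and 261 scaled tags in WT and 335 and 322 in GrnKO. This higher level in both GrnKO libraries was a log2 change of 0.35 (SE 0.14) that did not pass over all regions (limma adjusted p = 0.133). The 4 next strongest regions, in intron 1 of 13, had log2 changes of -0.34, -0.31, 0.043 and -0.28, or -0.11, -0.081, 0.27 and -0.054 in the authors' scaling, and none passed.

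Neu1, the sialidase that removes sialic acid, had 71.1 scaled tags in each WT library and 67.4 and 63.9 in GrnKO. Both GrnKO values were lower by a few tags, a log2 change of -0.11 (95% confidence interval -0.70 to 0.47, limma adjusted p = 0.85) that had the opposite sign, 0.074, in the authors' scaling. The start-site region, chr17:34930849-34931649, was even, with 27.4 and 27.8 scaled tags in WT and 26.02 and 32.1 in GrnKO. The highest region, chr17:34924392-34925192, is centred at -6461 bp from the start site, in intron 13 of 20 of another transcript, NM_023557. It held 40.7 and 33.5 scaled tags in WT and 23.8 and 25.4 in GrnKO (log2 change -0.57, limma adjusted p = 0.366).

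Of the enzymes that act on the lipid core, Smpd1, the acid sphingomyelinase, releases ceramide from sphingomyelin, and Asah1, the acid ceramidase, then splits ceramide. Smpd1 was weakly acetylated, with 25.6 and 24.3 scaled tags in WT and 30.7 and 14.5 in GrnKO. The 2 GrnKO libraries lay on either side of WT, and the log2 change of -0.23 had a 95% confidence interval of -1.26 to 0.80 (limma adjusted p = 0.823), which holds a 2-fold fall as well as no change. Only its start-site region, chr7:105553980-105554780, could be tested (20.7 and 23.3 scaled tags in WT, 28.6 and 11.3 in GrnKO). The other 2 Smpd1 regions held at most 4 tags in any H3K27ac library.

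Asah1 summed to 548 and 537 scaled tags in WT and 659 and 702 in GrnKO. The GrnKO libraries were both higher, by 0.33 on the log2 scale (SE 0.13, 95% confidence interval 0.056 to 0.60), and this did not pass over all genes (limma adjusted p = 0.107). Some Asah1 regions overlap, so their tags count more than once. Summed over non-overlapping regions, the log2 change was 0.235 (limma adjusted p = 0.323). Its regions did not all differ in the same direction. Distances at Asah1 are from the start site used in the table, which, unlike at the other 7 genes, does not match the end of the gene in RefSeq. Within 1000 bp of the start site the sum rose from 385 and 434 to 549 and 599.9 scaled tags (log2 change 0.49, limma adjusted p = 0.0447). The regions in this sum overlap, so they share tags. The strongest of those regions, in intron 1 of 13 at chr8:41373953-41374753, rose from 161 and 186 to 243 and 260.0 scaled tags (log2 change 0.54, limma adjusted p = 0.0475). The region over the start site itself, chr8:41374332-41375132, held 91.9 and 115 scaled tags in WT and 128 and 144 in GrnKO and did not pass (log2 change 0.40, limma adjusted p = 0.26).

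Farther into the same intron of Asah1, 10586 bp from the start site, chr8:41363711-41364511 fell from 72.7 and 40.3 to 21.2 and 24.5 scaled tags (log2 change -1.22, limma adjusted p = 0.0416). It was the only one of the 44 tested regions called lower. The 5 Asah1 regions over 1000 bp from the start site summed to 167 and 103 scaled tags in WT and 106 and 100.1 in GrnKO, a log2 change of -0.34 (limma adjusted p = 0.416) that was 0.0097 without WT replicate 1, the high library. The Asah1 calls are the least firm: the sum within 1000 bp and both called regions missed the threshold with the authors' scaling (log2 changes 0.69, 0.76 and -0.99, where the median of all regions is 0.22; limma adjusted p = 0.129, 0.0789 and 0.107), without the filter on low tags, and without WT replicate 1 or either GrnKO library. Without WT replicate 1 the log2 change at chr8:41363711-41364511 was -0.79 (limma adjusted p = 0.189).

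Gm2a encodes the activator that lifts GM2 ganglioside out of the membrane and presents it to β-hexosaminidase A. Its 7 regions summed to 444 and 573 scaled tags in WT and 427 and 445 in GrnKO, with WT replicate 2 above the other 3 libraries. The log2 change was -0.21 (95% confidence interval -0.53 to 0.11, limma adjusted p = 0.43), and -0.020 in the authors' scaling. The highest region lies at the 3′ end of the gene, chr11:55113258-55114058, 15673 bp from the start site, and not at the promoter. It held 196 and 310.1 scaled tags in WT and 208 and 218 in GrnKO (log2 change -0.21, limma adjusted p = 0.561), and its change was -0.53 and passed without WT replicate 1 (limma adjusted p = 0.0126) and 0.15 without WT replicate 2 (limma adjusted p = 0.596). The log2 change of the gene sum was -0.39 without WT replicate 1 (limma adjusted p = 0.0547) and -0.0043 without WT replicate 2 (limma adjusted p = 0.988). The start-site region, chr11:55097619-55098419, held 22.3 and 21.2 scaled tags in WT and 23.5 and 14.1 in GrnKO (log2 change -0.24, limma adjusted p = 0.802).

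The levels of the 8 genes were compared through the region of each with the highest mean over all 4 libraries, since all regions have the same width. In WT the means of these regions were 257 scaled tags at Hexa, 253 at Gm2a, 174 at Asah1, 109 at Glb1, 105 at Galc, 37.1 at Neu1, 22.02 at Smpd1 and 19.0 at Gla. Hexa and Gm2a, Glb1 and Galc, and Smpd1 and Gla overlapped in their WT values. In GrnKO the order was Hexa at 329 scaled tags, Asah1 at 252, Gm2a at 213, Galc at 196, Glb1 at 148, Gla at 95.01, Neu1 at 24.6 and Smpd1 at 19.9, with the values of Smpd1 on either side of those of Neu1. Gla, with the lowest mean in WT, stood above Neu1 and Smpd1 in both GrnKO libraries. This order holds for regions the table assigns to Gla; the Hnrnph2 region over the Gla promoter, at 57.5 and 66.3 scaled tags, was already above Neu1 and Smpd1 in WT.

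Regions near the start sites and regions farther away were also fitted apart. Within 1000 bp of the start site 3 of the 8 genes rose, Gla, Galc and Asah1, against 3.96% of 11084 genes as higher and 1.53% as lower, with a median log2 change of 0.43. Without GrnKO replicate 1 none of the 3 passed, with log2 changes of 1.98 at Gla, 0.82 at Galc and 0.56 at Asah1 against 2.30, 0.90 and 0.49 with all libraries; with a 500 bp limit 1 passed, Galc, since Gla then has no region and Asah1 missed the threshold (limma adjusted p = 0.0926). Beyond 1000 bp, 2 of the 6 genes tested rose, Gla and Galc, against 11.7% of 11368 genes as higher and 6.05% as lower, with a median of -0.16; without GrnKO replicate 1 this was Galc alone. Glb1 has no such region and Smpd1 had too few tags there.

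**Figure D4:**
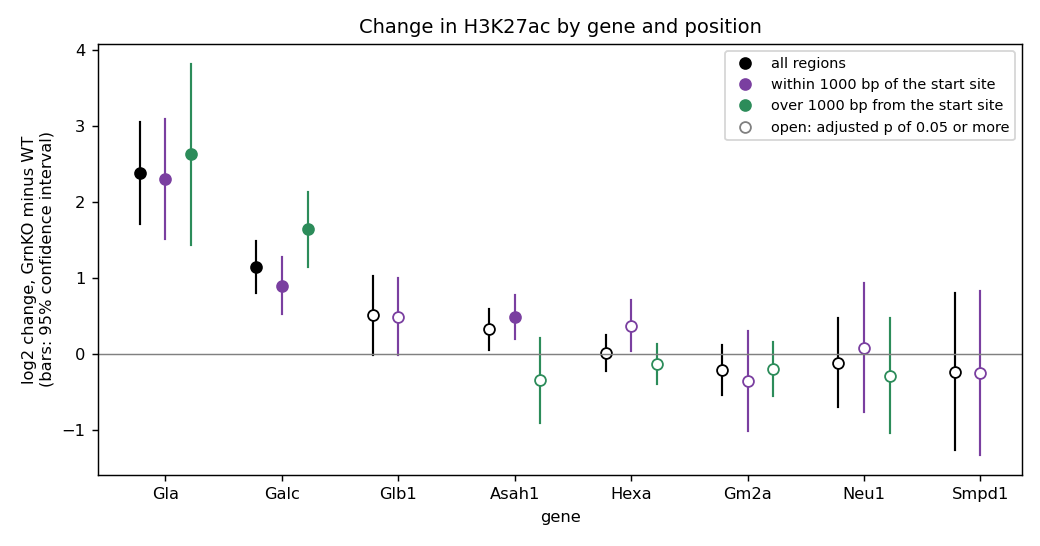
Log2 change of H3K27ac, GrnKO minus WT, for each gene over all its regions (black), those within 1000 bp of the start site (purple) and those farther away (green), with 95% confidence intervals; filled points have an adjusted p under 0.05. The 3 points of Gla and of Galc are filled and above 0, the start-site point is the only filled one of Asah1, and the intervals of Smpd1 span more than 2 log2 units.

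The input libraries gave the background of the assay at the same places. Over the 48 regions, H3K27ac exceeded the matching input by a median factor of 18.8 and 12.7 in WT and 20.7 and 26.5 in GrnKO, with 1 added to each value. Over all regions the WT medians were 8.75 and 5.44, and those of GrnKO 4.68 and 8.24. The ratios depend on the added value: with 5 added, those of the 48 regions fell to 4.55 and 4.31 for WT and to 6.29 and 6.67 for GrnKO. Of all regions, 91.3% and 60.3% held no tag in the WT inputs and 43.1% and 81.9% in the GrnKO inputs. Where an input held no tag, the divisor is the added value alone. At the start-site regions the input was at most 10.7 scaled tags in any library. At the 2 Gla regions and the 5 called Galc regions the inputs held at most 12 tags, or 24.5 scaled tags, which is under the H3K27ac level of either GrnKO library in each of these regions. At the Asah1 region called lower, chr8:41363711-41364511, the input of GrnKO replicate 1 held 16.3 scaled tags against 22.9 for H3K27ac in the same scaling, and the other 3 inputs held 0. At the Asah1 region called higher the inputs held at most 12.8 scaled tags.

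The neighbouring steps of the pathway were described by the same fit. The lists here and below were chosen with earlier results of these data known. Their shares are therefore descriptions and no separate support. Of 14 tested genes of 15 that also serve lysosomal sphingolipid breakdown or lipid export, 3 were higher and 0 lower (9.54% and 4.88% of all genes), with a median log2 change of 0.14. They were Smpdl3a, an acid sphingomyelinase-like phosphodiesterase (1.51, limma adjusted p = 5.79e-05), Ctsa, the protective protein that stabilises Neu1 and Glb1 in a complex (0.87, limma adjusted p = 0.00118), and Npc1, a cholesterol exporter (0.55, limma adjusted p = 0.00815). Psap, the precursor of the saposin activators, had a change of -0.032 (limma adjusted p = 0.843) and was named here after its value was seen. With the replicate number as a block, 6 of these genes passed, 3 higher and 3 lower, and the calls over all genes went from 2218 to 2977 (1841 higher and 1136 lower).

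Among 25 tested genes of 29 for sphingolipid synthesis, 2 were higher and 1 lower, against 9.54% and 4.88% of all genes, with a median of 0.065. The higher ones were B4galt5, which makes lactosylceramide (0.48, limma adjusted p = 0.00708), and Ugcg, the glucosylceramide synthase (0.53, limma adjusted p = 0.0406). The lower one was St3gal5, the GM3 synthase at the entry to gangliosides (-0.49, limma adjusted p = 0.016). In the authors' scaling 6 were higher and 0 lower, where 1629 of all 15380 genes were higher and 166 lower. With a block 5 were higher and 3 lower, where 1841 of all genes were higher and 1136 lower. Leaving out a library gave 0 to 11 calls: 0 without GrnKO replicate 2, 1 without GrnKO replicate 1, 6 without WT replicate 1 and 11 without WT replicate 2, where the calls over all genes were 1195, 953, 3180 and 3419. Of 13 tested genes of 16 for breakdown outside the lysosome, only Sgpp1, a sphingosine-1-phosphate phosphatase, passed (1.01, limma adjusted p = 0.000957), a share near that of all genes, with a median of 0.028.

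Lysosomal hydrolases with other substrates gave 8 higher and 0 lower of 32 tested, against 9.54% and 4.88% of all genes. The list held 33 genes, and the median of those tested was 0.21. It too was chosen with earlier results of these data known, so its share is a description only. Without WT replicate 2 the list gave 12 higher and 2 lower, where 2216 of all 16004 genes were higher and 1203 lower. The 5 with the smallest p were Hpse, which cuts heparan sulfate (2.36, limma adjusted p = 2.65e-06), Lipa, the acid lipase (1.24, limma adjusted p = 5.67e-06), Sgsh, a heparan sulfatase (1.12, limma adjusted p = 0.000381), Ctsa, which is in both lists, and the protease Ctsb (0.67, limma adjusted p = 0.00129). The change of 2.39 at Gla was close to that of Hpse, and the 1.15 at Galc lay between those of Lipa and Sgsh.

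**Figure D5:**
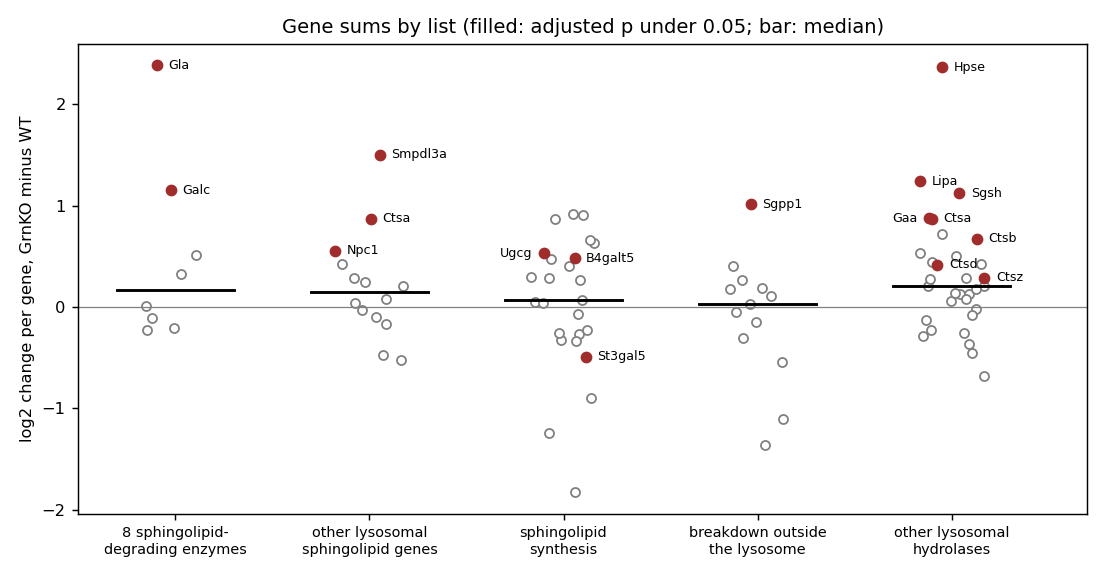
Log2 change per gene, GrnKO minus WT, of the summed H3K27ac of the 8 genes and of 4 lists of other genes; filled points have an adjusted p under 0.05, open points do not, and bars are medians. Gla and Galc are the filled points of the first list, and the medians of the 5 columns lie between 0.028 and 0.21.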

How the data were processed

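H3K27ac and input ChIP-seq of sorted microglial nuclei were measured in 8 libraries, 2 of each kind per genotype. The deposited table holds signal: per the file headers, the authors counted tags in 800 bp regions, merged reproducible ATAC-seq peaks, and scaled each library to 10000000 tags. The build mm10 and the tools Bowtie2, HOMER and DESeq2 are named in the submitters' processing notes, without roles. Multiplying by the totals in the headers returned whole read ends, 2 per tag, for 100% of values (tolerance 0.005 scaled tags). The floor of 3 tags covers counting error only. Confidence intervals are limma's. They rest on the spread between libraries, drawn toward a trend fitted over all regions or genes tested.

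Because the values are signal, limma 3.58.1 (lmFit, eBayes with trend; R 4.3.3) was the main test, on log2(TMM-scaled tags + 1), with TMM factors of 0.825, 1.04, 1.08 and 1.08 from edgeR 4.0.16 and filterByExpr at a minimum of 10 tags. Adjustment was over all regions or genes tested. Tags were summed per gene over its assigned regions, and a tag in overlapping regions counts in each. The 170 rows without a gene symbol stayed out of the sums. Count tests on recovered tags (edgeR, DESeq2 1.42.0) were alternatives. Simulated regions and gene sums were also run through limma, edgeR and DESeq2, and the outcome is not given here. Pools with the same replicate number are different mice; the deviations of same-numbered libraries correlated at 0.034, while X- and Y-linked signal went with the number, and a fit with the number as a block was an alternative. Replicates differed by more than sampling noise. The text names all 8 genes, for each the start-site region, the highest region and up to 5 called regions, and up to 5 called genes per list; others were picked with their values in view. The members and lists were chosen with earlier results of these data known.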

Additional observations from a re-analysis of the deposited data

Results flagged for a closer look

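At 9 of the 48 regions an input library, which served only as background, held more scaled tags than the H3K27ac library of the same pool and more than the floor of 3 tags. The largest was a Hexa intron 1 region, chr9:59547651-59548451, with 213 scaled tags (87 tags) in WT input 1 against 8.07 in the H3K27ac library; the other 3 inputs held 0 to 3.74. WT input 1 also held 40.5 at Galc chr12:98255132-98255932. WT input 2 held 7.49 at Hexa chr9:59536594-59537394 and 20.3 at Hexa chr9:59537528-59538328. GrnKO input 1 held 2.77 at Galc chr12:98181638-98182438 and 9.71 at Galc chr12:98212263-98213063. GrnKO input 2 held 10.2 at Hexa chr9:59533672-59534472 and at Smpd1 chr7:105527141-105527941, and 17.3 at Smpd1 chr7:105533976-105534776. Input values here are in the authors' scaling. None of these regions was called between genotypes, and 4 of them were not tested for lack of H3K27ac tags.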

How the results depend on the processing

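Of 618 values computed under alternatives, 558 stayed on the same side of the threshold or, for counts, within 1.5 times; 32 became weaker, 4 stronger, 24 moved and 0 called values changed sign. Values under the threshold could cross 0, such as the Smpd1 sum, at -0.23 and at 0.29 without GrnKO replicate 2, and the Hexa sum, at 0.014 and at -0.0065 without GrnKO replicate 1. The cause was not tested, except that fewer libraries enter when one is left out. Leaving out one library gave 2171 to 13647 called regions (7842 with all) and 953 to 3419 called genes (2218 with all). For the 8 genes it gave 2 to 11 called regions, 2 to 3 gene sums, 0 to 3 sums within 1000 bp and 1 to 2 beyond it. For the lists it gave 2 to 6 other lysosomal sphingolipid genes, 0 to 11 synthesis genes, 1 to 2 genes of breakdown outside the lysosome (2 without WT replicate 2) and 6 to 14 other hydrolases (14 without WT replicate 2). The 500 bp limit gave 1 sum at the start site. The authors' scaling gave 6 synthesis genes. The replicate block, with the replicate number as a term of the fit, gave 6 other lysosomal sphingolipid genes and 8 synthesis genes; it called 11391 regions and 2977 genes in all and left the counts of the 8 genes at 9 regions and 2 sums. With a pseudocount of 5 the median ratio to input at the 48 regions, averaged over the 2 libraries, was 4.43 in WT and 6.48 in GrnKO, against 15.7 and 23.6. A floor of 3 tags is 1.498 to 1.94 scaled tags, and 4 of the 48 regions could not be tested.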

Other observations

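The genes whose H3K27ac over the 4 libraries lay closest to the median pattern of the 8 enzymes, by Euclidean distance between log2 sums centred on each gene's mean, were Arf2 (0.0739), Park2 (0.0753) and Tmed10 (0.0761). None of them was called (log2 changes 0.19, 0.22 and 0.18; limma adjusted p = 0.312, 0.297 and 0.377). The median pattern itself was -0.032 and -0.10 in WT and 0.18 and 0.094 in GrnKO on the centred log2 scale.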
